A study of Brassica rapa with 30 samples.

Results

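The response of Brassica rapa cultivar Chiifu to 40 days of cold was measured while the plants were still cold, in 6 of the 30 RNA-seq libraries of the study. They are the 3 libraries labelled V40 (40 days of cold) and the 3 labelled NV (no cold), taken by their labels and without use of any measured value. Chiifu is the cultivar labelled late flowering, and no transgene or mutation is given for it. All plants were raised in a greenhouse for 3 weeks before any treatment, and RNA was taken from whole plants. Other libraries used here are Chiifu after 1 day (V1) or 20 days (V20) of cold. Chiifu after 40 days of cold followed by 10 days of warmth (V40T10) was used too. So was LP08, the cultivar labelled early flowering, mainly at V40 and NV. The LP08 libraries of V1, V20 and V40T10 entered in levels by treatment, in the scaling of levels and in fits of all 30 libraries. V40 plants were older than NV plants by the length of the treatment, so the effect of cold and that of age cannot be told apart in this comparison. Nothing in the labels states whether replicate libraries were made from different plants, so p-values cover only the variation among these libraries, possibly technical.

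Plants respond to cold on more than 1 time scale. In Arabidopsis, within hours, CBF transcription factors turn on COR genes, whose products protect membranes and proteins against freezing, and growth and photosynthesis are adjusted. Over weeks, vernalization silences FLC, a MADS-box repressor of flowering, through the cold-induced PHD-finger protein VIN3 and Polycomb proteins, so that FT and SOC1 can later promote flowering. Brassica rapa carries several copies of many genes known from Arabidopsis, a relative, FLC among them. The deposited tables list genes by ID only. A RefSeq table of 51589 genes paired 1 of the 42186 IDs with an entry. No read was counted on that gene in the 6 libraries. That is a limit of 0.0225 CPM (counts per 1000000 counts assigned to genes, with library sizes scaled in the levels below) over the 6 together. Gene lists and tissue markers were therefore not tested, and genes are described by ID, level, size of change and course over time.

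The 6 libraries held 18663200 to 25663966 counts assigned to genes, and 29521 to 30437 genes had at least 1 count. Libraries of V40 were alike, with correlations of log2 CPM across genes of 0.986 to 0.989, whereas those of NV gave 0.912 to 0.947. Pairs in the groups other than these gave 0.971 to 0.991. Deviations of each library from the mean of its own group had an SD over genes of 0.25, 0.26 and 0.28 on the log2 scale in V40 replicates 1, 2 and 3, and 0.59, 0.56 and 0.71 in NV replicates 1, 2 and 3. Outside Chiifu NV this SD reached at most 0.38 in any library. NV replicate 3 stood farthest from its group. Values without it stand beside many, though not all, of the counts and medians of V40 against NV.

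After 40 days of cold, 2300 of the 25655 genes tested rose (8.97%) and 2967 fell (11.6%) in Chiifu, by edgeR's quasi-likelihood test at a Benjamini-Hochberg adjusted p below 0.05. The median change was a log2 fold change of 1.43 among the genes that rose and -1.68 among those that fell, against -0.04 over all genes tested. The smallest change called was 1.47-fold, and the median standard error was 0.30 on the log2 scale. Each gene's spread was estimated from these 6 libraries alone. When all 30 libraries shared 1 estimate, 6106 genes rose and 7061 fell. With libraries scaled by their total count alone, 2549 rose and 2478 fell, so which direction had more genes depended on the scaling. Single libraries also moved the number called. Without NV replicate 3, 4944 genes rose and 5257 fell, and without V40 replicate 1, 2 or 3 in turn, 725, 722 and 735 rose and 836, 821 and 884 fell. In the fit of all 6 libraries and in each of the 6 fits without 1 of them, 648 genes rose (28.2% of those called) and 688 fell (23.2%).

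**Figure D1:**
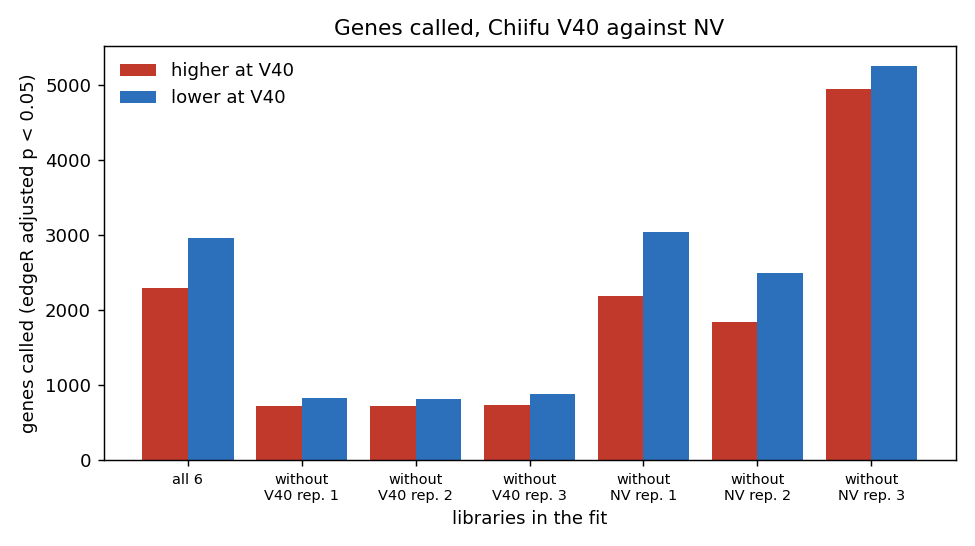
Number of genes called higher (red) or lower (blue) at V40 than at NV in Chiifu with all 6 libraries and with each library left out. Both bars are shortest without a V40 library (722 to 735 higher, 821 to 884 lower) and tallest without NV replicate 3 (4944 and 5257).

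The V40 and NV libraries of the called genes hardly overlapped, which follows largely from calling the genes on these libraries. In all 2300 genes that rose, every V40 library lay above every NV library, and in 2961 of the 2967 that fell, every V40 library lay below every NV library. Over all genes tested, libraries did not overlap in 12090 (47.1%), with 6510 genes higher at V40 (25.4%) and 5580 lower (21.8%). Most genes without overlap thus did not pass the test. Without NV replicate 3, with 2 NV libraries to compare, 8769 genes (33.7%) lay higher and 8265 (31.7%) lower without overlap.

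With TMM scaling, more genes fell than rose at each size of change. Among the genes called, 1732 rose by at least 2-fold (6.75% of genes tested) and 2519 fell by at least 2-fold (9.82%). At 4-fold or more there were 667 that rose and 1116 that fell, at 8-fold or more 320 and 503, and at 16-fold or more 164 and 247. A further 832 genes had a log2 fold change of 1 or more and 1285 of -1 or less without passing the test. Of 722 genes at 4-fold or more higher, 55 did not pass, and of 1258 at 4-fold or more lower, 142 did not. Without V40 replicate 1, 2 or 3 all genes called had at least 2-fold changes, and without NV replicate 3 the counts that rose and fell were 2138 and 2977 at 2-fold or more, 791 and 1164 at 4-fold, 381 and 529 at 8-fold and 204 and 275 at 16-fold.

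**Figure D2:**
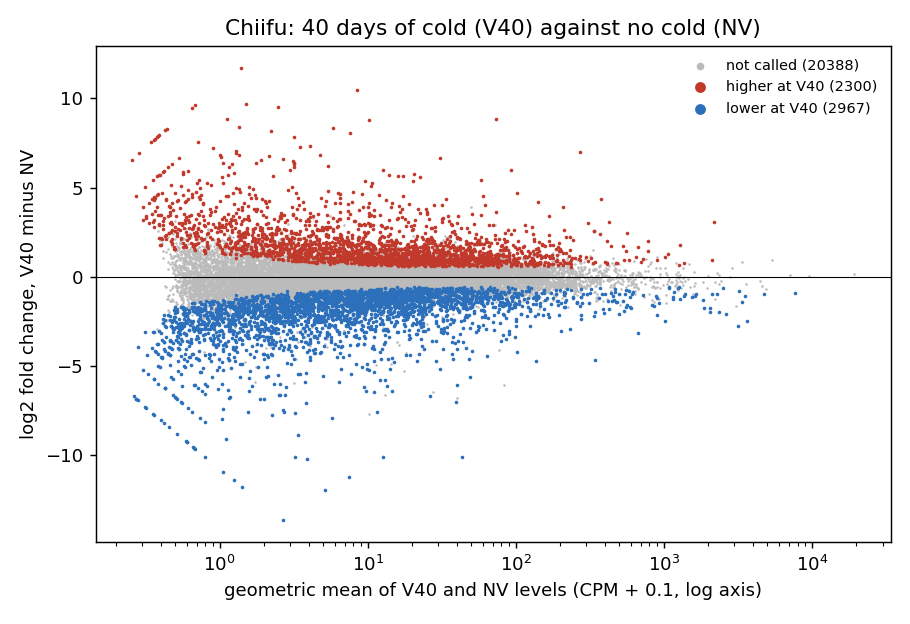
Log2 fold change of each tested gene, V40 minus NV in Chiifu, against the geometric mean of its levels in both groups (CPM + 0.1, log axis). Red points are the 2300 genes called higher and blue points the 2967 called lower, and both lie over the whole range of levels.

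The share of genes that fell was larger in the lowest quartile of expression level than in the highest. In the quartile of tested genes with the lowest mean level (0.273 to 3.79 CPM), 942 genes fell (14.7%) and 552 rose (8.61%). In the quartile with the highest level (29.6 CPM and over), 632 fell (9.85%) and 682 rose (10.6%). Without NV replicate 3, 21.1% fell and 11.2% rose in the lowest quartile, and 18% fell and 27.6% rose in the highest. The median size of a called change was 2.21 on the log2 scale in the lowest quartile and 1.23 in the highest. The median level of the genes that rose was 19.5 CPM at V40 and 6.38 CPM at NV, and that of the genes that fell was 3.64 CPM at V40 and 12.7 CPM at NV. These levels follow from how the genes were called and are a description.

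Expression in 1 group alone was rare. With a mean of at least 5 CPM at V40, 12 of 17344 genes (0.0692%) had at most 3 counts over the 3 NV libraries, 4 of them 0. Their V40 means ranged from 6.1 to 596 CPM, with a median of 10.5. Of these 12 genes, 6 were at 5 CPM or more in every V40 library, and in 3 a single library held over 90% of the level. With a mean of at least 5 CPM at NV, 24 of 17778 genes (0.135%) had at most 3 counts over the 3 V40 libraries, 14 of them 0. Of these 24, only 2 reached 5 CPM in every NV library, and edgeR called 10, against 8 of the 12 found at V40 alone. In 22 of the genes seen at NV alone, at least 1 NV library was thus under that level. Without NV replicate 3 the numbers were 19 seen at V40 alone and 26 at NV alone.

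The pool of transcripts shifted from the genes that fell towards those that rose. Genes that rose held 14.6, 14.9 and 15% of the counts in V40 replicates 1, 2 and 3, against 5.13, 5.44 and 4.22% in NV replicates 1, 2 and 3. Genes that fell held 9.14, 9.05 and 8.96% at V40, against 21.8, 22.3 and 23.9% at NV. Genes called in neither direction held 76.1 to 76.3% at V40 and 71.9 to 73.1% at NV. The genes were called on these libraries, so that the groups separate is fixed by the choice. How the shift was shared out among genes was not. Summed over genes, mean levels gained 96900 CPM in those that rose and lost 152000 CPM in those that fell. These levels use scaled library sizes, so the sums need not equal the differences between the shares of counts above. The 10 genes with the greatest gain made up 20.3% of the gain, and 91 genes were enough for 50% of it. The loss was held by fewer genes, as the 10 with the greatest loss made up 26.5% and 42 were enough for 50%. With the genes called without NV replicate 3, 214 genes were enough for 50% of the gain and 91 for 50% of the loss. Those that rose then held 29.9 to 30.3% of the counts at V40, against 14.6 to 14.8% at NV, and those that fell 16.8 to 17.2% at V40, against 34.2 to 34.5% at NV.

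**Figure D3:**
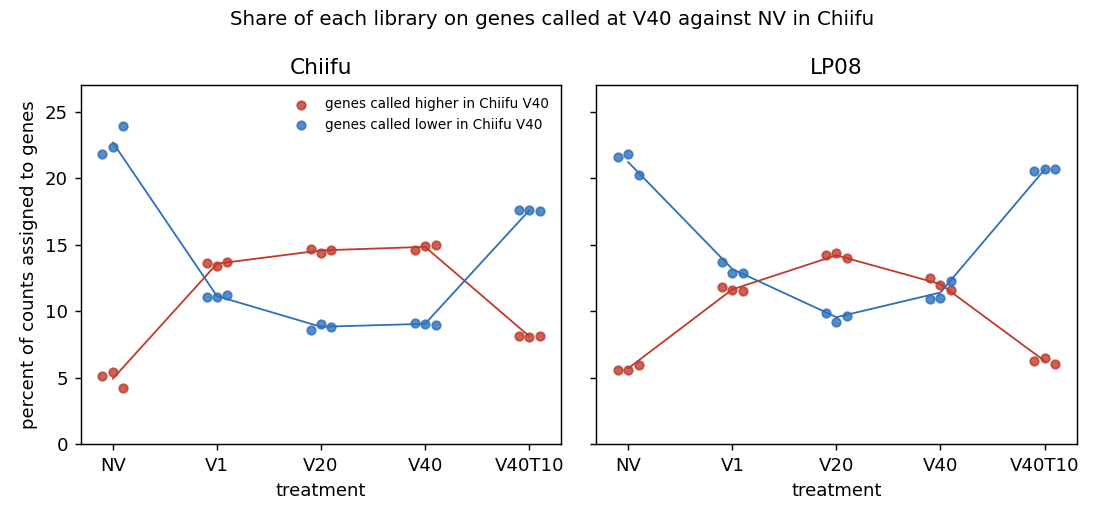
Percent of the counts of each library that fell on genes called higher (red) or lower (blue) at V40 than at NV in Chiifu, by treatment in Chiifu (left) and LP08 (right). Points are libraries and lines join group means. In LP08, whose libraries did not choose the genes, the red points lie at 11.6 to 12.5% at V40 and 5.58 to 5.95% at NV, and the blue points at 10.9 to 12.3% at V40 and 20.2 to 21.8% at NV.

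LP08 libraries, which had no part in choosing the genes, shifted in the same direction between their own V40 and NV plants. Genes that rose in Chiifu held 12.5, 12 and 11.6% of the counts of the LP08 V40 libraries, against 5.59, 5.58 and 5.95% of the LP08 NV libraries. Genes that fell in Chiifu held 10.9, 11 and 12.3% at V40 in LP08, against 21.6, 21.8 and 20.2% at NV. The libraries did not overlap in either case, and the exact permutation test, two-sided with n = 3 in each group, gave p = 0.1 for both, the smallest p that 3 against 3 allows.

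Among IDs with at least 10 counts in each of the 6 libraries, 485 rose and 533 fell in the fit of all libraries and in each fit without 1 of them. The 2 per direction whose smallest change over those fits was greatest are described here. The files give no function for them.

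Bra000265 had 1460, 1710 and 1550 CPM in V40 replicates 1, 2 and 3, against 2.02, 4.56 and 3.45 CPM in NV replicates 1, 2 and 3. All V40 libraries lay far above all NV libraries. The increase was 458-fold, a log2 fold change of 8.84 ± 0.40 (standard error; edgeR adjusted p 0.000208), and it was 381-fold to 559-fold when each library was left out. Its group means in Chiifu were 3.34 CPM at NV, 2720 at V1, 1270 at V20, 1570 at V40 and 1.58 at V40T10, so the level was high from the first day of cold to the last and low after the warm period.

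Bra000263 had 3130, 3370 and 2800 CPM in the V40 libraries, against 23.6, 22.2 and 25.4 CPM in the NV libraries. Both groups were tight, and the increase was 127-fold (log2 fold change 6.99, standard error 0.22, edgeR adjusted p 0.000101). Its group means were 23.7 CPM at NV, 2910 at V1, 2810 at V20, 3100 at V40 and 4.11 at V40T10. After the warm period its mean lay under that of plants never exposed to cold, with 3.31 to 4.76 CPM over the V40T10 libraries and 22.2 to 25.4 CPM over the NV libraries, a difference for which no test is given here.

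Bra025210 had 2.77, 2.34 and 2.62 CPM in the V40 libraries, against 286, 136 and 359 CPM in the NV libraries. The V40 values were close together and the NV values spread over a wide range, with no overlap. The decrease was 104-fold (log2 fold change -6.70, standard error 0.45, edgeR adjusted p 0.000516). Its group means were 261 CPM at NV, 13.2 at V1, 4.87 at V20, 2.57 at V40 and 37 at V40T10.

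Bra021222 had 0.562, 1.03 and 3.17 CPM in the V40 libraries, against 140, 70.9 and 116 CPM in the NV libraries. The decrease was 69.6-fold (log2 fold change -6.12, standard error 0.70, edgeR adjusted p 0.00259), and 138-fold without V40 replicate 3, the highest of the V40 libraries. Its group means were 109 CPM at NV, 39 at V1, 4.61 at V20, 1.59 at V40 and 1.92 at V40T10. Unlike the other features described above, its mean at V40T10 lay close to that at V40, with 1.17 to 2.52 CPM over the V40T10 libraries and 0.562 to 3.17 CPM over the V40 libraries.

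**Figure D4:**
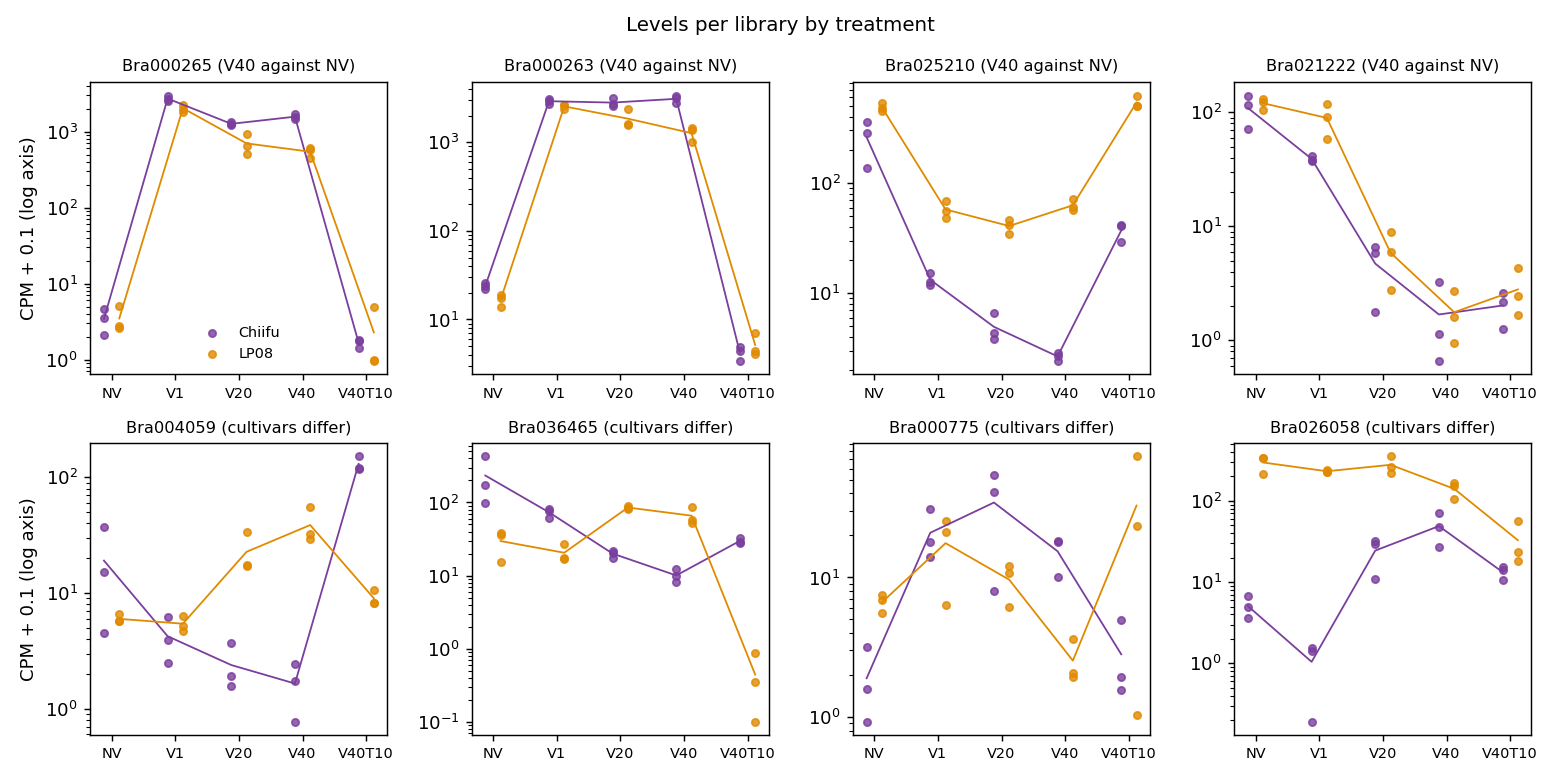
Level of 8 features in each library (CPM + 0.1, log axis) by treatment, in Chiifu (purple) and LP08 (orange), with lines through group means. In the upper row, Bra000265 and Bra000263 are high at V1, V20 and V40 only, Bra025210 is lowest in Chiifu at V40 with 2.57 CPM, and Bra021222 declines with days of cold and stays at 1.92 CPM in Chiifu at V40T10. The lower row holds features whose response to 40 days of cold differed between cultivars.

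The genes called at V40 were followed through the other treatments of Chiifu. These comparisons share the NV libraries, so their values stand side by side without a test of their likeness. Genes that rose at V40 had a median log2 fold change of 1.01 at V1, 1.31 at V20, 1.43 at V40 and 0.53 at V40T10, each against NV. Genes that fell had medians of -1.21, -1.52, -1.68 and -0.58 at these times. Called without NV replicate 3 and set against the other NV libraries, genes that rose had medians of 0.61 at V1, 0.83 at V20, 0.90 at V40 and 0.26 at V40T10, and genes that fell had -0.81, -1.06, -1.13 and -0.36. Over all genes tested at V40 the medians lay between -0.06 and -0.01. Counting both directions, 26.6% of genes were called at V1, 19.5% at V20, 20.5% at V40 and 16.4% at V40T10, each against NV. Of the 2300 genes that rose at V40, 1132 were called higher at V1 (where 11.9% of all genes were), 1687 at V20 (8.25%) and 605 at V40T10 (7.77%). Of the 2967 that fell, 1643 were called lower at V1 (14.7%), 2239 at V20 (11.2%) and 814 at V40T10 (8.59%). Counted the opposite way at V40T10, 84 of the genes that rose in the cold were called lower than NV and 104 of those that fell were called higher.

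At the last 2 sampling times in the cold, V40 and V20, 4.86% of genes differed. At V40, 2.95% of genes were called higher and 1.9% lower than at V20. Of the genes that rose from NV to V40, 165 were called higher at V40 than at V20 and 41 lower, and of those that fell, 117 were called lower and 60 higher. These values share the V40 libraries with the comparison that chose the genes.

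A comparison of cold with rewarmed plants in libraries outside V40 and NV gave medians of the same sign. V20 was set against V40T10, a comparison in which 67.4% of genes were called, 32.6% higher and 34.8% lower at V20. Genes that rose at V40 had a median log2 difference, V20 minus V40T10, of 0.86, and genes that fell had one of -0.96, against -0.01 over all genes tested. Of the 2300 that rose, 1588 were called higher at V20 than at V40T10 and 231 lower, and of the 2967 that fell, 2013 were called lower and 257 higher. Both groups of this comparison had been in the cold, for 20 and 40 days, so it does not separate plants with and without vernalization. V40T10 plants were also older than V20 plants. Return to warmth, age and length of cold therefore cannot be told apart in it. When the genes were called without V40 replicate 1, 2 or 3, the medians were 1.46, 1.40 and 1.39 for genes that rose and -1.45, -1.42 and -1.45 for genes that fell. They were 0.64 and -0.67 when the genes were called without NV replicate 3.

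In LP08, 40 days of cold moved 21% of genes higher and 21.2% lower than NV by the same test on its own 6 libraries, which are not those of Chiifu. Of the 2300 genes that rose in Chiifu, 1521 rose in LP08, which are 66.1% of the Chiifu list and 28.6% of the LP08 list, and 30 fell. Of the 2967 genes that fell in Chiifu, 1854 fell in LP08, which are 62.5% of the Chiifu list and 34.5% of the LP08 list, and 82 rose. The median standard error was 0.30 on the log2 scale in Chiifu and 0.17 in LP08, and the smallest log2 change called was 0.56 in Chiifu and 0.28 in LP08. Genes were split by their change in Chiifu into below 2-fold, 2-fold to 4-fold, 4-fold to 8-fold, 8-fold to 16-fold, and 16-fold and over. Of those that rose, 58.6, 69.2, 67.7, 64.7 and 70.1% in these classes were called the same way in LP08. For genes that fell the shares were 59.4, 63.3, 63.3, 61.7 and 62.3%. Above 2-fold these shares did not grow steadily with size. Genes with too few counts in LP08 to be tested are included here. They were 3 of 568, 42 of 1065, 53 of 347, 38 of 156 and 40 of 164 of the genes that rose. Of those that fell, they were 9 of 448, 65 of 1403, 80 of 613, 47 of 256 and 53 of 247. Of the genes tested in LP08 alone, the shares were 58.9, 72, 79.9, 85.6 and 92.7% for genes that rose. For genes that fell they were 60.6, 66.4, 72.8, 75.6 and 79.4%. Whether the share grew with size above 2-fold thus depended on the genes left out. The changes in LP08 were smaller, with a median log2 fold change of 0.82 over the 2124 genes that rose in Chiifu and were tested in LP08, and -0.95 over the 2713 that fell, against 1.43 and -1.68 in Chiifu. The genes were called in Chiifu, so this gap is given as a description. Over the 23888 genes tested in both cultivars, the 2 sets of log2 fold changes had a Pearson correlation of 0.66, given as a description since genes are not independent. Among the genes called without each Chiifu library in turn, 81.3% of the 648 that rose also rose in LP08 and 76% of the 688 that fell also fell.

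The response of 1121 genes to 40 days of cold differed between the cultivars by edgeR's interaction term over the 12 libraries, which is 4.11% of the 27285 genes tested. The change in LP08 was higher than in Chiifu in 713 of them (2.61%) and lower in 408 (1.5%). Of the genes that rose in Chiifu, 237 were among them (10.3%), and of those that fell, 416 (14%). The Chiifu lists and the interaction share the Chiifu libraries, so these shares are a description. In 222 of the 713 the gene fell in Chiifu and was not called in LP08, in 254 it rose in LP08 and was not called in Chiifu, in 92 it fell in both and in 82 it fell in Chiifu and rose in LP08. Of the 408, 155 fell in LP08 without a call in Chiifu, 112 rose in Chiifu without a call in LP08, 80 rose in both and 30 rose in Chiifu and fell in LP08. Genes not called in a cultivar include those with too few counts to be tested in its own fit. Of the 1121 genes, 1000 were tested in the fits of both cultivars. The count of 1121 was 2385, 1152 and 2565 without Chiifu NV replicates 1, 2 and 3. It was 521, 487 and 542 without Chiifu V40 replicates 1, 2 and 3, 647, 591 and 651 without LP08 V40 replicates 1, 2 and 3, and 578, 481 and 517 without LP08 NV replicates 1, 2 and 3. The interaction fit shared 1 spread per gene over Chiifu NV and the less variable groups, which can understate the error of Chiifu NV. With limma voom and weights per group the count was 723.

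**Figure D5:**
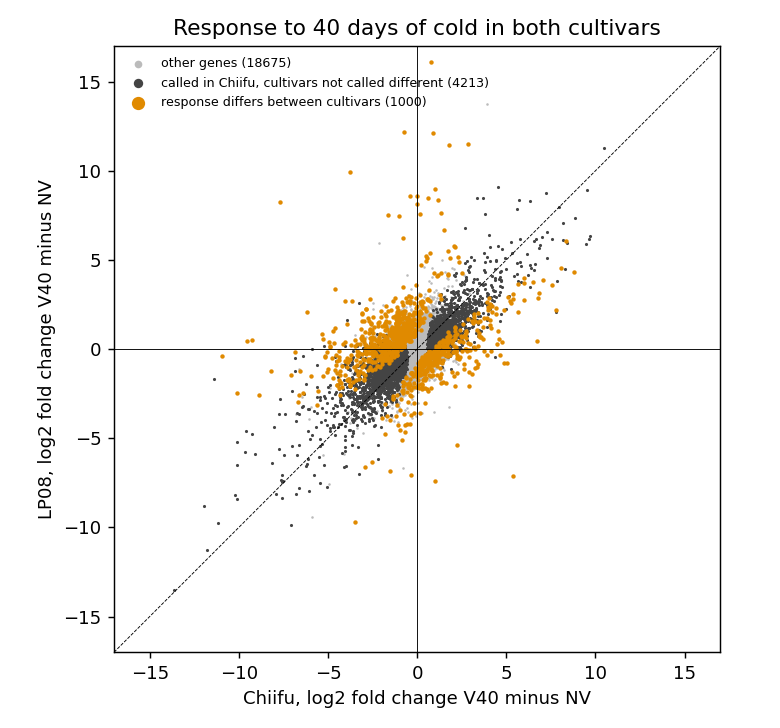
Log2 fold change of each gene, V40 minus NV, in Chiifu (horizontal) and LP08 (vertical) for the 23888 genes tested in both cultivars. Dark points are the 4213 genes called in Chiifu whose response was not called different between cultivars. Orange points are the 1000 plotted genes whose response differed, also where they were called in Chiifu, and the dashed line marks equal responses. Dark points lie in the upper right and lower left areas with few exceptions, which follows in part from drawing the genes that differed in orange.

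With a rule like that for V40 against NV, applied to the 12 libraries, 2 features per direction were taken from those whose difference held without each library. Bra004059 had 1.64, 0.674 and 2.34 CPM in the Chiifu V40 libraries, against 4.43, 37.4 and 15.1 CPM in the Chiifu NV libraries. In LP08 it had 32, 29 and 54.9 CPM at V40, against 5.61, 6.46 and 5.58 CPM at NV. It fell 12.4-fold in Chiifu and rose 6.6-fold in LP08, and the log2 difference of the responses, LP08 minus Chiifu, was 6.37 (standard error 0.90, edgeR adjusted p 0.00309). Without Chiifu NV replicate 2, the highest NV library, it was 5.41. In Chiifu the level reached 130 CPM at V40T10, above each earlier time, and in LP08 it was then 8.92 CPM.

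Bra036465 had 9.64, 12.2 and 7.93 CPM in the Chiifu V40 libraries, against 97.6, 428 and 176 CPM in the Chiifu NV libraries. In LP08 it had 87.3, 57.7 and 52.6 CPM at V40, against 15.1, 35.5 and 38 CPM at NV. The log2 difference of its responses was 5.77 (standard error 0.72, edgeR adjusted p 0.00167). It was 5.01 when Chiifu NV replicate 2 was left out. Both features with the higher change in LP08 had their highest Chiifu NV level in replicate 2.

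Bra000775 had 10, 18.1 and 17.8 CPM in the Chiifu V40 libraries, against 1.49, 0.828 and 3.07 CPM in the Chiifu NV libraries. In LP08 it had 1.96, 3.5 and 1.85 CPM at V40, against 7.33, 5.51 and 6.76 CPM at NV. It rose 8.35-fold in Chiifu and fell 2.68-fold in LP08, with a log2 difference of -4.48 (standard error 0.60, edgeR adjusted p 0.0024) that was -5.12 without Chiifu NV replicate 3.

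Bra026058 had 71, 27.2 and 48.2 CPM in the Chiifu V40 libraries, against 3.51, 4.79 and 6.59 CPM in the Chiifu NV libraries. In LP08 it had 153, 104 and 165 CPM at V40, against 334, 341 and 214 CPM at NV. Its levels moved towards each other in the cold, with a log2 difference of the responses of -4.31 (standard error 0.51, edgeR adjusted p 0.00113). At V1 its mean was 0.943 CPM in Chiifu, below that at NV, and it was 24.3 CPM at V20 and 48.8 CPM at V40.

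Of the features chosen for V40 against NV alone, Bra025210 also differed between the cultivars. In LP08 it had 71.4, 56.7 and 60.2 CPM at V40, against 478, 531 and 450 CPM at NV, a 7.71-fold decrease where Chiifu fell 104-fold, and the log2 difference of the responses, LP08 minus Chiifu, was 3.77 (standard error 0.42, edgeR adjusted p 8e-04). For Bra021222 the log2 difference was -0.03 with a standard error of 0.73 (edgeR adjusted p 1), an error wide enough to leave differences of more than 2-fold undetected. Bra000265 was 458-fold higher in Chiifu and 162-fold higher in LP08, with a log2 difference of -1.49 (standard error 0.43, edgeR adjusted p 0.0804). For Bra000263 it was -0.71 (standard error 0.26, edgeR adjusted p 0.157).

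Rows with IDs beginning with ENSRNA, a class of gene IDs apart from the Bra models, made up a small part of each library. They held 0.653, 0.084 and 0.165% of the counts in V40 replicates 1, 2 and 3, against 0.0634, 0.0729 and 0.207% in NV replicates 1, 2 and 3, so V40 replicate 1 stood apart. That library also had the highest share of alignments at several places among the 6, at 6.53%. Of the 62 such rows tested, 19 were called higher at V40 (30.6%, against 8.97% of all genes) and 10 lower (16.1%, against 11.6%). Leaving out any V40 library lowered the calls among all genes too. Without V40 replicate 1, 10 of 73 such rows were called higher (13.7%, against 2.76% of all genes) and 1 was called lower (1.37%, against 3.18%). Without V40 replicate 2, 12 of 81 were called higher (14.8%, against 2.74%), and without V40 replicate 3, 10 of 79 (12.7%, against 2.80%). At most 1 was called lower in any of these 3 fits. The share called higher thus lay between 12.7 and 14.8% whichever V40 library was left out. Without NV replicate 3, 27 of 76 were called higher (35.5%, against 19%) and 14 lower (18.4%, against 20.2%). Without NV replicate 1, 16 of 79 were called higher (20.3%, against 8.36%) and 8 lower (10.1%, against 11.6%). Without NV replicate 2, 16 of 77 were called higher (20.8%, against 7.06%) and 5 lower (6.49%, against 9.62%). The share called lower was thus under that of all genes in each fit without 1 library.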

How the data were processed

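RNA-seq counts from whole plants were analysed for 3 V40 and 3 NV libraries of Chiifu. The other Chiifu treatments and LP08, mainly at V40 and NV, were used for comparison. Per the labels' protocols, DNase-treated total RNA went into stranded mRNA libraries. FastQC, TopHat2, HTSeq and edgeR were used, per the submitters' processing notes. Not given in the sources used here are the build, the annotation and the strand setting. For each library the authors deposited raw read counts of 42186 genes with 5 summary rows, which were left out of library sizes and tests. Over the 6 libraries, 6.91 to 10.7% of alignments lay outside genes, 2.94 to 6.53% matched several places and at most 0.0399% lay on overlapping genes, so levels of near-identical copies, overlapping genes and antisense genes are uncertain.

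Each comparison was fitted with edgeR 4.0.16 in R 4.3.3 on its own libraries, with TMM factors, filterByExpr, the quasi-likelihood F test and Benjamini-Hochberg adjustment, and called below 0.05. The spread was taken from the compared groups because Chiifu NV varied more than the other groups. Standard errors come from the F statistic. Levels are CPM of library sizes scaled over all 30 libraries, and log2 levels used a prior count of 2. The limit for a gene with 0 counts is 3 counts, for counting error alone. Alternatives were 1 fit of all libraries, limma 3.58.1 voom with weights per group, DESeq2 1.42.0, other scaling, other filters, a replicate block and leaving out each library. Groups, lists and tests were chosen with earlier results of these data known. Genes were named by this rule: at most 2 IDs per direction, called in the fit and in each fit without 1 library, with 10 or more counts in every library, ranked by their smallest change over these fits, and for V40 against NV with no overlap. Lists of flowering, cold response, clock, photosynthesis, cell division and organ marker genes were not tested, as the IDs carry no names. Replicate libraries differed beyond sampling noise in every pair (chi-square per degree of freedom 7.28 to 134).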

Additional observations from a re-analysis of the deposited data

Results flagged for a closer look

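The responses of the cultivars to 40 days of cold differed in 1121 genes by the test of the difference itself, the edgeR interaction over 12 libraries with Benjamini-Hochberg adjustment. Among the features described, the log2 difference of the responses, LP08 minus Chiifu, was 6.37 for Bra004059, which fell in 3 of 3 Chiifu V40 libraries relative to every NV library and rose in 3 of 3 LP08 V40 libraries. It was 5.77 for Bra036465, with the same directions. It was -4.48 for Bra000775 and -4.31 for Bra026058, which rose in Chiifu and fell in LP08 with no overlap between V40 and NV in either cultivar. These features were chosen for large differences, and the part that the wide spread of Chiifu NV had in them was not tested.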

How the results depend on the processing

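With 1 fit of all 30 libraries, 6106 genes rose and 7061 fell (2663 and 4207 by at least 2-fold), the response of 3522 differed between cultivars (1903 higher and 1619 lower in LP08), and the shares called the same way in LP08 were 47.7 and 45.6% for genes that rose and fell in Chiifu. With limma voom weights per group the interaction count was 723 (457 and 266) and the shares 70.5 and 66.4%, and with DESeq2 they were 2428 (1393 and 1035) and 59.9 and 58%. Scaling by the total count alone gave a median log2 change of all genes of 0.08, against -0.04 with TMM, and shares of 75.7 and 54.8%. Deviations of same-numbered V40 and NV libraries correlated at 0.08, -0.03 and 0.08. With 3 libraries per group these values cannot decide whether the replicate numbers pair the libraries. With a replicate block 1460 genes rose and 1849 fell, the interaction count was 531 (352 and 179) and the shares were 71.6 and 67.8%. V40 replicates 1 and 3 correlated best with the NV library of their own number. V40 replicate 2 did not, with -0.0326 for its own number and 0.0658 for NV replicate 1.

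The medians of V20 minus V40T10 for genes that rose and fell were 0.49 and -0.65 with 1 fit of all libraries, 0.91 and -0.98 with voom weights, 0.73 and -0.79 with DESeq2, 0.65 and -1.25 with total counts, 0.94 and -1.08 with no filter, 0.85 and -0.92 with a mean of at least 1 CPM, 1.09 and -1.20 with the replicate block, and 0.87 for genes that rose with RLE factors. Leaving out 1 library at a time gave 722 to 4944 genes that rose, 821 to 5257 that fell and 481 to 2565 in the interaction. It gave shares of 55.2 to 80.8% and 55.1 to 74.3%, and medians of 0.64 to 1.46 and -1.45 to -0.67. The causes were not tested.

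The 8 named results were chosen among those that passed without each library. Under the other 8 alternatives, 64 values in all, they kept their direction and their side of the threshold. These alternatives include the libraries that chose the features, so this follows largely from the choice and is a description. Of the 5267 genes called, none was called in the opposite direction under any alternative, and 587 that rose and 643 that fell were called under each of them. ENSRNA rows were 10 of the 2967 genes called lower in the main fit. With all libraries in 1 fit they were 22 of 7061, and with voom weights 5 of 2596. With a mean of at least 1 CPM they were 2 of 2681, and with the block 3 of 1849. Among genes called higher they were 19 of 2300, 30 of 6106, 15 of 1959, 15 of 2078 and 16 of 1460 in the same order. The number of such rows tested under these alternatives is not given here, so their share called cannot be compared.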
